A study of Mus musculus with 2 samples.

Results

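The 9 genes Th, Ddc, Dbh, Gch1, Slc18a2, Maoa, Maob, Phox2a and Hand2 make, store or break down catecholamines, or encode transcription factors of the cells that do so. They were chosen by symbol, with their levels in these libraries already known, and all 9 symbols matched 1 gene each among the 55536 GENCODE M21 gene IDs measured. Their levels are therefore given as descriptions, with no test. The tissue was the neural tube of B6NCrl mouse embryos at embryonic day 12.5, with no treatment and no genetic change named in the labels. It was collected as 2 pools of both sexes, 120 embryos for replicate 1 and 88 embryos for replicate 2, and polyadenylated RNA was sequenced from 10 ng of total RNA per library. The tissue is whole, so a gene's level is a mean over many cell types, and fewer cells of a type cannot be told apart from less RNA per cell.

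Catecholamines are made from tyrosine. Tyrosine hydroxylase (Th) makes L-DOPA, using the cofactor tetrahydrobiopterin, whose synthesis starts with GTP cyclohydrolase (Gch1). The aromatic amino acid decarboxylase (Ddc) turns L-DOPA into dopamine, and dopamine beta-hydroxylase (Dbh) turns dopamine into noradrenaline inside vesicles that the vesicular monoamine transporter (Slc18a2, also called VMAT2) fills. The monoamine oxidases Maoa and Maob break the transmitters down. In the embryo, sympathetic ganglia form from neural crest beside the neural tube under transcription factors that include Phox2a and Hand2, and Phox2a is also known from hindbrain neurons. Hand2 is known from the heart and limb as well.

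The promoters of the genes with the highest level in the synthesis step and the storage step are shown first, since both hold the same perfect cyclic AMP response element (CRE), the letters TGACGTCA. Each window runs from 250 bases before the RefSeq start of transcription to 30 bases after it (assembly GRCm38.p6), 5′ to 3′ on the strand of the gene. Capitals mark the CRE and any E box (CANNTG, the site family of basic helix-loop-helix factors such as Hand2). The Th window is chr7:142899966-142900245 on the minus strand, and its CRE begins 45 bases before the start. The Slc18a2 window is chr19:59260628-59260907 on the plus strand, and its CRE begins 4 bases before the start.
Th: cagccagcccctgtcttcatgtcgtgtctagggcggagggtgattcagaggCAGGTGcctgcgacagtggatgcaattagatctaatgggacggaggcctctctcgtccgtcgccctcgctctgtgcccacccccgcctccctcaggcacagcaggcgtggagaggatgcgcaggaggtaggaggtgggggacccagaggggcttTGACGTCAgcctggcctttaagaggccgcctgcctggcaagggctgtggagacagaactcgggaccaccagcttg
Slc18a2: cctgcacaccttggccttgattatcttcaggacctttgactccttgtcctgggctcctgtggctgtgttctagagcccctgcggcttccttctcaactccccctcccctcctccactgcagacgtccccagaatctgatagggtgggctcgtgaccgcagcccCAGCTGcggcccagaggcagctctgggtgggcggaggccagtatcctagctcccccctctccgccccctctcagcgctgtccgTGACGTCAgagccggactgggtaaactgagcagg

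RefSeq windows were matched for 8 of the 9 genes, and Maob had none in the table used. Ddc had 2 windows, so 9 were searched. Both strands were searched for TGACGTCA and CANNTG, for the TATA box letters TATAAA and for the GC box letters GGGCGG, and no 2 of these motifs share bases in the windows printed. The CRE was found in 572 of 32851 RefSeq windows of the same length (1.74%), the E box in 70.1%, the TATA box letters in 13.1% and the GC box letters in 34.7%. Among the windows searched here, Th and Slc18a2 held the CRE. A match is a description of letters and does not show that a factor binds there.

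The other windows shown are those of Ddc, because RefSeq places its starts 7736 bases apart. The upstream (distal) window is chr11:11898115-11898394 and the downstream (proximal) window chr11:11890379-11890658, both on the minus strand. Capitals mark the TATA box letters, which the distal window holds on the opposite strand, and the proximal window holds none of the motifs searched. The start in the proximal window is that of the leading transcript Ddc-202. The start in the distal window is that of Ddc-210, which had 0 counts in both libraries, and the start of Ddc-201, at 11898044, lies outside it.
Ddc distal: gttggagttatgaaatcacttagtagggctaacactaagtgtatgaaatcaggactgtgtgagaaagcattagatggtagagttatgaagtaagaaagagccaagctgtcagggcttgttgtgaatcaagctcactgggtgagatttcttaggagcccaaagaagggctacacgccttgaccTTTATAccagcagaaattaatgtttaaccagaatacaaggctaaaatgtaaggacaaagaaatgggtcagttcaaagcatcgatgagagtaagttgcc
Ddc proximal: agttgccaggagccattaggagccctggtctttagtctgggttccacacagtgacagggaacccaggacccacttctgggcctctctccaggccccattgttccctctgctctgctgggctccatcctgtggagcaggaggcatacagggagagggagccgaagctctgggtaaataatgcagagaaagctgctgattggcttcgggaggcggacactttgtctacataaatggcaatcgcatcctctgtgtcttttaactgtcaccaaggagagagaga

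Replicate 1 held 33529531 estimated counts and replicate 2 held 35461403. Synthetic ERCC spike-in RNAs took 2.99% and 2.89% of them. Levels are in TPM, which is corrected for length, so genes can be compared within a library, and means are ± SD over the 2 libraries (n = 2). The tissue label was checked on 8 neural tube genes, none of which fell under 1 TPM in either library, with Fabp7 of radial glia at 1430 ± 49.3 TPM, the neuronal tubulin gene Tubb3 at 967 ± 20.3 TPM and the Notch target Hes5 at 317 ± 6.90 TPM. Genes of red blood cells summed to 7877 and 7613 TPM, led by the embryonic globin gene Hbb-y at 5367 ± 81.6 TPM, and genes of mesenchyme and meninges to 849 and 872 TPM, so RNA of cells outside the neural tissue was in both pools. The 154 genes listed for these checks and for the pathway were all measured.

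Of the 9 genes, 7 reached 1 TPM in both libraries, beside 60.9% of the 22028 protein-coding genes. They were Th, Maoa, Slc18a2, Ddc, Maob, Gch1 and Phox2a, in that order of mean level, with Dbh and Hand2 below. The libraries did not overlap between Th and Maoa, between Maoa and Slc18a2, between Slc18a2 and Ddc, or between Ddc and Maob. The place of Ddc above Maob holds for gene totals, which for Ddc include noncoding transcripts. Its coding transcripts Ddc-202 (2.37 and 1.30 TPM) and Ddc-201 (0 and 0.65 TPM) do not separate from Maob (1.82 and 1.98 TPM). Maob, Gch1 and Phox2a overlapped and cannot be ordered from these libraries. Dbh lay below these 3 in both libraries, and Hand2 lay below Dbh.

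**Figure D1:**
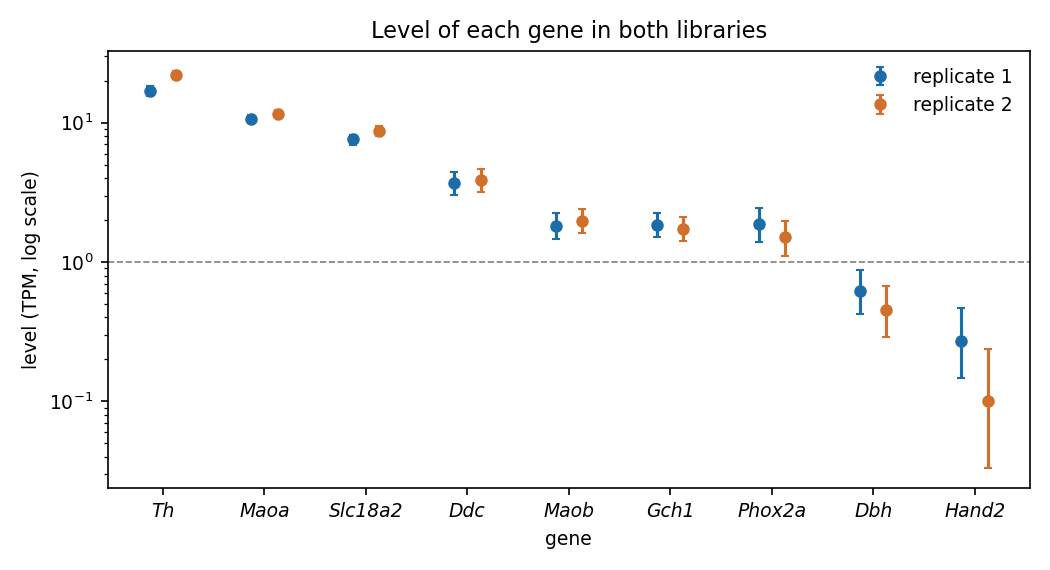
Level of each gene in TPM (log axis) in replicate 1 (blue) and replicate 2 (orange), with 95% exact Poisson intervals that cover counting error only; the dashed line is 1 TPM. Th lies at 16.9 and 22.1 TPM at the left, and Dbh and Hand2 lie below the line in both libraries.

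Th was the highest of the 9. It stood at 16.9 TPM in replicate 1 (612 counts) and at 22.1 TPM in replicate 2 (827 counts), with a mean of 19.5 ± 3.66 TPM, which ranked 7094 of 22028 protein-coding genes. The gene (ENSMUSG00000000214.11) lies on chromosome 7, 142892752 to 142931128, minus strand, in mm10. All of its counts in both libraries were assigned to Th-201, a protein-coding transcript of 13 exons and 1829 bases. The 5 other annotated Th transcripts, 3 of them marked for nonsense-mediated decay, were assigned 0 counts in both. Their posterior SDs ran up to 12.1 counts in replicate 1 and 10.1 in replicate 2 (Th-204), so a small share from them would not be detectable at this depth.

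Ddc, which takes the next step, was lower. The gene (ENSMUSG00000020182.16) lies on chromosome 11, 11814101 to 11898144, minus strand. Its level was 3.67 TPM in replicate 1 and 3.85 TPM in replicate 2, with a mean of 3.76 ± 0.127 TPM. Th exceeded Ddc 4.60-fold in replicate 1 and 5.73-fold in replicate 2, a log2 ratio of 2.36 ± 0.22. With counts per annotated exon length in place of TPM the mean log2 ratio was 3.55. These ratios take all transcripts of each gene together. Noncoding transcripts took 35.5% of Ddc's TPM in replicate 1 and 49.4% in replicate 2, and none of Th's. Th over coding Ddc RNA alone would thus be larger. Dbh, the step to noradrenaline, stood at 0.620 TPM in replicate 1 and 0.450 TPM in replicate 2. That is 32 counts (95% exact Poisson interval 21.9 to 45.2) and 24 counts (15.4 to 35.7), above the 3 counts that an observed 0 would allow, which are worth 0.0584 and 0.0564 TPM for this gene. Th exceeded Dbh 27.2-fold in replicate 1 and 49.0-fold in replicate 2. Dbh (ENSMUSG00000000889.8) lies on chromosome 2, 27165233 to 27183200, plus strand, and all its counts were assigned to its protein-coding transcript. The order of the steps in both libraries was thus Th, then Ddc, then Dbh.

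Gch1, which starts cofactor synthesis, stood at 1.85 TPM in replicate 1 and 1.72 TPM in replicate 2. Gch1 (ENSMUSG00000037580.10) lies on chromosome 14, 47153895 to 47189413, minus strand. Its level was below that of Th in both libraries, by a log2 ratio of -3.44 ± 0.35 (-4.21 with counts per annotated exon length). The genes that follow Gch1 in the cofactor pathway were higher. Pts, the next enzyme, had a mean of 78.4 ± 0.636 TPM and Spr, sepiapterin reductase, 24.8 ± 3.42 TPM. Qdpr and Pcbd1, which recycle the cofactor, had 82.8 ± 6.07 and 21.5 ± 0.375 TPM, and Pcbd2 had 23.3 ± 1.90 TPM. These cofactor enzymes also serve other pathways. Gchfr, the feedback regulator of Gch1, was close to it at 2.75 ± 0.0566 TPM, and Cyb561, a cytochrome that supplies electrons to Dbh in vesicles, stood at 16.0 ± 1.56 TPM. In this list of 11 synthesis and cofactor genes, 7 reached 1 TPM in both libraries.

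Slc18a2, which fills vesicles with monoamines, stood at 7.57 TPM in replicate 1 (586 counts) and 8.71 TPM in replicate 2 (699 counts). It lay between Th and Ddc. The gene (ENSMUSG00000025094.8) lies on chromosome 19, 59260896 to 59296012, plus strand. Th exceeded it 2.23-fold and 2.53-fold in replicates 1 and 2, and Ddc was below it by a log2 ratio of -1.11 ± 0.09 (-2.26 with counts per annotated exon length). The protein-coding transcript Slc18a2-201 took 98.1% of the gene's TPM in replicate 1 and 97.4% in replicate 2, and a retained-intron transcript, Slc18a2-202, took the rest. The antisense gene Gm29261 shares 111 exon bases with Slc18a2 and was listed at 0 counts in both libraries.

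The plasma membrane transporters that take catecholamines back into neurons were near the limit of counting. The noradrenaline transporter gene Slc6a2 had 3 and 7 counts (0.0200 and 0.0500 TPM) in replicates 1 and 2, and the dopamine transporter gene Slc6a3 had 9 and 4 counts (0.130 and 0.0500 TPM). Slc18a1, the other vesicular monoamine transporter, stood at 0.590 and 0.460 TPM. These 3 were chosen after their values were seen, to complete the steps of the pathway. Slc29a4, a low-affinity monoamine carrier, was higher at 51.8 ± 1.22 TPM.

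**Figure D2:**
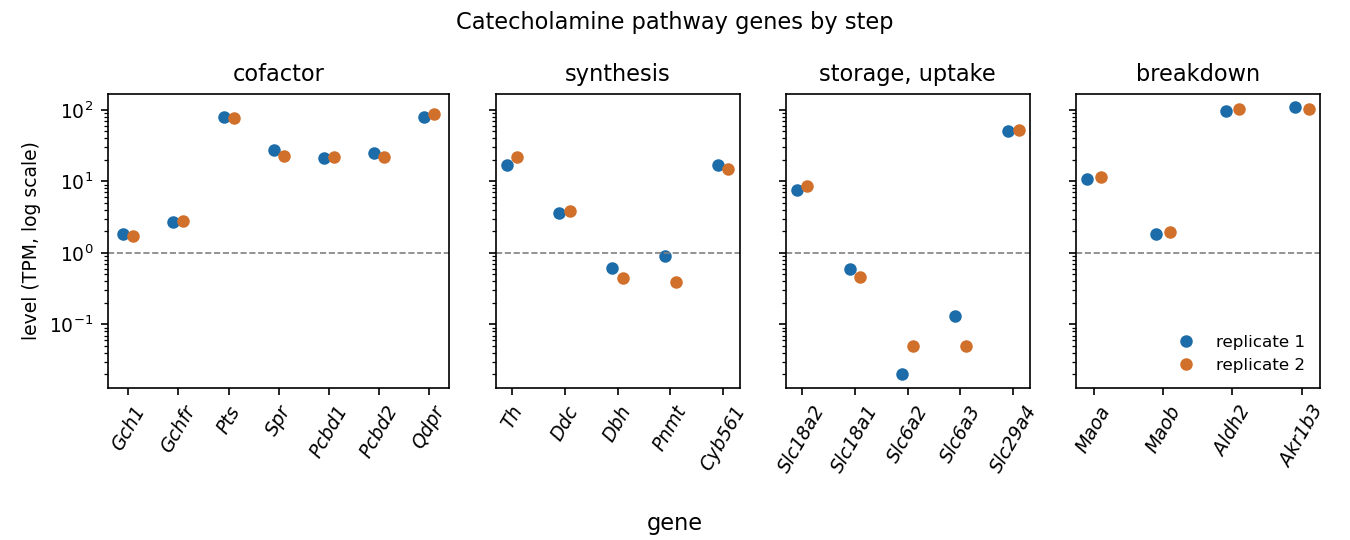
Level in TPM (log axis) of genes at each step of the catecholamine pathway in replicate 1 (blue) and replicate 2 (orange), with the dashed line at 1 TPM. Gch1 and Gchfr lie below the other cofactor genes, the synthesis enzymes descend from Th to Dbh, and Slc6a2 and Slc6a3 lie at or below 0.130 TPM.

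The monoamine oxidases differed from each other. Maoa, the form that prefers serotonin and noradrenaline, stood at 10.7 TPM in replicate 1 (912 counts) and 11.6 TPM in replicate 2 (1018 counts). Maob stood at 1.82 TPM (88 counts) and 1.98 TPM (99 counts). Maoa exceeded Maob 5.88-fold in replicate 1 and 5.83-fold in replicate 2. Maoa (ENSMUSG00000025037.6) lies on chromosome X, 16619698 to 16687818, plus strand. Maob (ENSMUSG00000040147.14) lies on chromosome X, 16709282 to 16817366, minus strand. These paralogs lie tail to tail, with 21463 bases between their ends, and both pools held both sexes. The posterior SD of the gene-level count was 0 for both in both libraries, as for every other gene here but Hand2 (0.790 counts in replicate 1). Maoa-201 is the single annotated Maoa transcript, and Maob-201 took all Maob counts, with 0 on the 3 Maob transcripts marked for nonsense-mediated decay.

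Some other enzymes of catecholamine breakdown stood above both monoamine oxidases. The aldehyde dehydrogenase gene Aldh2 had 99.0 ± 5.26 TPM and the aldose reductase gene Akr1b3 107 ± 4.10 TPM. Both are widely used enzymes. Sult1a1, also listed with breakdown and named after its values were seen, stood below both oxidases at 0.42 and 0.62 TPM (7 and 13 counts). In the list of 10 transport and breakdown genes, 4 reached 1 TPM in each library, among them Aldh2, Akr1b3 and Slc29a4. Of 14 catecholamine receptor genes 4 did, all adrenergic, among them Adra2a (2.51 ± 0.509 TPM), Adra1a (1.83 ± 0.0990) and Adra2b (1.02 ± 0.0212). The dopamine receptor gene Drd2 passed in replicate 1 with 1.33 TPM and missed in replicate 2 with 0.850 TPM, and Drd3 and Drd5 had 0 counts in both (named after their values were seen).

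Phox2a, a homeodomain factor that acts upstream of Dbh in noradrenergic cells, stood at 1.86 TPM in replicate 1 (51 counts) and 1.5 TPM in replicate 2 (49 counts). The gene (ENSMUSG00000007946.11) lies on chromosome 7, 101818313 to 101822726, plus strand. The counts were nearly equal, and the TPM differed with the transcripts they were assigned to. In replicate 1 a retained-intron transcript, Phox2a-202, took 3.99 counts and 19.9% of the gene's TPM, and in replicate 2 it took 0. Inppl1, on the opposite strand, shares 95 exon bases with Phox2a and stood at 29.5 and 27.6 TPM. The strand setting of the counting was not given in the sources used here, so whether reads in those bases were told apart by strand is not known.

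Hand2, a basic helix-loop-helix factor, was the lowest of the 9. It had 12.9 estimated counts in replicate 1 (0.270 TPM) and 5 counts in replicate 2 (0.10 TPM). The 95% Poisson intervals of the rounded counts, 6.92 to 22.2 and 1.62 to 11.7, overlapped. Hand2 (ENSMUSG00000038193.4) lies on chromosome 8, 57320983 to 57324633, plus strand, and has 1 annotated transcript. Both counts were above the limit of 3. Hand2os1, a noncoding gene on the opposite strand that shares 461 exon bases with Hand2, had 33 counts in replicate 1 and 8 in replicate 2. Both had fewer counts in replicate 2, and whether shared bases were told apart by strand is again not known. Hand1, the paralog, had 6 counts in each library, so Hand2 was above it in replicate 1 and below it in replicate 2.

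Ddc was divided most between transcripts, its leading transcript taking a mean of 49.1% of the gene's TPM. It has 10 annotated transcripts, 4 of them protein coding, and 7 were assigned counts in at least 1 library. The coding transcript Ddc-202, which begins at the proximal start shown above, took 91.97 counts in replicate 1 and 52.2 in replicate 2, or 64.5% and 33.7% of the gene's TPM. Ddc-201, the other transcript that begins upstream, took 0.0300 counts in replicate 1 and 25.7 in replicate 2. These transcripts share most of their sequence, and the posterior SDs were 20.2 and 19.97 counts for Ddc-202 and 17.8 and 18.9 for Ddc-201. The shift between the starts was of about the size of these errors and is not resolved by these data. All 4 transcripts that begin near the proximal start took 97.0 counts in replicate 1 and 57.5 in replicate 2.

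A short noncoding transcript, Ddc-206, was assigned counts in both libraries. It has 964 bases in 5 exons and begins inside the gene, at 11822921 on chromosome 11. Its counts were 18.7 (posterior SD 8.01) in replicate 1 and 23.9 (6.40) in replicate 2, which came to 28.1% and 33.1% of the gene's TPM, which is a level per length. The division among transcripts also set the gene's length: the effective length of Ddc was 1521 bases in replicate 1 and 1343 in replicate 2. Its count was 117 in replicate 1 and 112 in replicate 2 while its TPM was 3.67 and 3.85, and neither difference was larger than counting error.

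**Figure D3:**
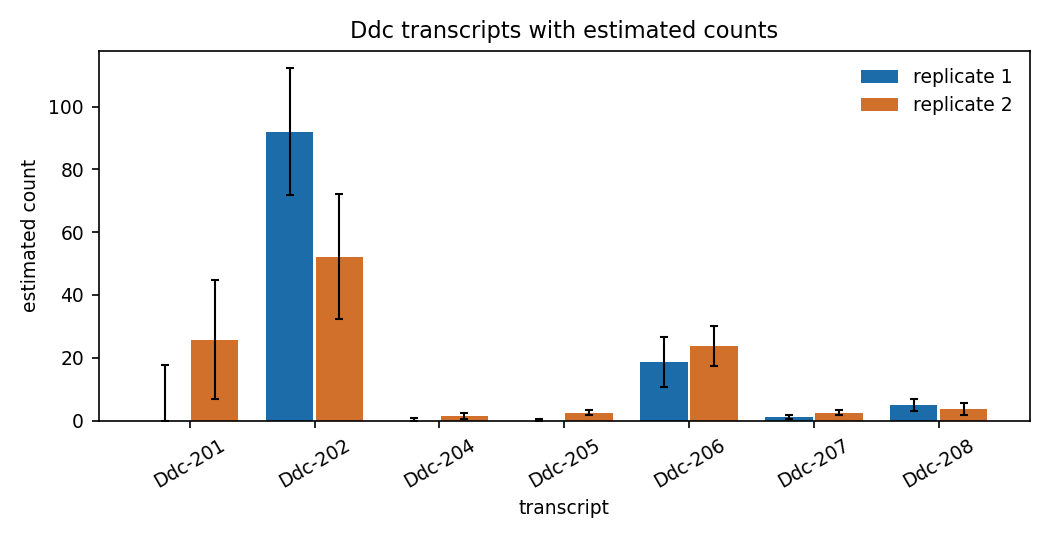
Estimated counts of the 7 Ddc transcripts assigned any count, in replicate 1 (blue) and replicate 2 (orange), with bars of 1 posterior SD. Ddc-202 leads in both libraries, and the bars of Ddc-201 and Ddc-202 span about 20 counts each way.

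The libraries are replicates of 1 group, so a difference between them describes these 2 pools and has no replicate check. The labels call them biological replicates. Scaled counts of replicate 2 were set over those of replicate 1, as log2 ratios with a prior count of 2 and with a 95% exact interval of the ratio without a prior count, which covers counting error only, and a gene was counted as past the threshold beyond 1.5-fold. All 9 genes had at least 10 counts in either library and entered the comparison. In all, 1 of the 9 was past 1.5-fold, Hand2, which was lower in replicate 2, beside 11.2% of the 20125 genes compared. By direction the shares over all genes were 4.57% higher and 6.63% lower. Dbh, Maob, Phox2a and Hand2 had mean counts under 100, where 31.1% of genes were past 1.5-fold. The other 5 had 100 to 1000 counts, where 2.6% were, and 0 of these 5 were. The share among the 9 was close to the share over all genes. The median log2 ratio of the 9 was -0.14, against -0.00093 over all genes compared.

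Th had a log2 ratio of 0.34 (interval 0.19 to 0.50), a 1.27-fold higher scaled count in replicate 2. Slc18a2 had a log2 ratio of 0.16, with an interval of 0.0049 to 0.33 that just left out 0. The intervals of the other 7 genes held 0. Maoa was at 0.07 (-0.06 to 0.20) and Maob at 0.08 (-0.35 to 0.51). Ddc, Gch1 and Phox2a lay between -0.15 and -0.14. Dbh was at -0.47 (-1.33 to 0.30), and Hand2 at -1.17 with an interval of -3.31 to 0.11. Counting error was thus small for Maoa and large for Dbh and Hand2. Other variation between pools is not in these intervals.

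**Figure D4:**
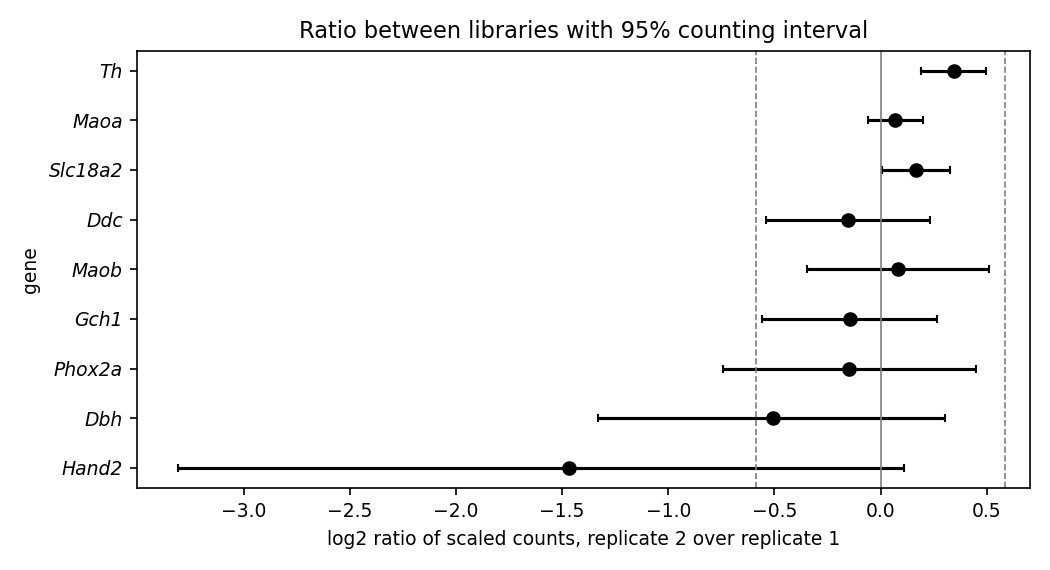
Log2 ratio of scaled counts of replicate 2 over replicate 1 for each gene (points, no prior count) with 95% exact counting intervals; dashed lines mark 1.5-fold. Th and Slc18a2 have intervals above 0, and the interval of Hand2 runs from -3.31 to 0.11.

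Markers of cells that use these genes were measured beside them. Sensory ganglion genes, with all 10 reaching 1 TPM in each library, summed to 316 TPM in replicate 1 and 417 TPM in replicate 2. Their median log2 ratio was 0.42, in the direction of Th. Of the 10, 2 were past 1.5-fold and higher in replicate 2, beside 4.57% of all genes compared. Both had mean counts of 100 to 1000, where 2.6% of all genes were past it in either direction. Those 2, named after their values were seen, were Scn10a (293 and 620 counts), a sodium channel gene of pain-sensing neurons, and Avil (239 and 450 counts), a marker of sensory neurons. Th is also known from a class of sensory neurons. Among the highest of that list were the sensory neuron factor gene Pou4f1 (103 ± 16.6 TPM) and the neurotrophin receptor gene Ntrk2 (59.3 ± 1.06). Their log2 ratios were 0.26 and 0.03. Schwann cell precursor and crest genes, 8 of 8 expressed, summed to 204 and 244 TPM, with a median ratio of 0.21. Among the highest were Ednrb (125 ± 13.1 TPM) and Sox10 (24.8 ± 4.84). The part of these cells in the Th difference was not tested.

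Of 16 genes of the sympathetic and autonomic lineage, 14 reached 1 TPM in both libraries, and they summed to 629 and 666 TPM. Among the highest were Npy (173 ± 8.99 TPM) and Dlk1 (81.5 ± 3.50), which other cells of the embryo express too. Their median log2 ratio was 0.03. Of its 15 genes compared, 1 was past 1.5-fold and higher in replicate 2 and 1 was past it and lower, while Phox2a was at -0.14 (-0.74 to 0.45). The list of visceral motor neurons of the hindbrain summed to 121 and 165 TPM, with a median log2 ratio of -0.10. It was led by the motor and sensory neuron factor gene Isl1 (127 ± 30.9 TPM), Tbx3 (7.72 ± 1.39) and Tbx2 (3.94 ± 0.332). Isl1 alone stood at 105 and 148 TPM, so it made up most of both sums and of their difference. Of the 6 genes, 2 were past 1.5-fold and lower in replicate 2. Both had mean counts under 100, where 31.1% of all genes were past it.

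Of 10 genes of midbrain dopamine neurons 7 reached 1 TPM in each library, led by Nr4a2 (16.4 ± 0.0636 TPM), Lmx1b (3.62 ± 0.0283) and En1 (3.18 ± 0.191), all of which are also known from the spinal cord. The list summed to 31.2 and 30.9 TPM, and Slc6a3, its defining transporter gene, had the counts given above. Of 8 serotonin neuron genes 4 did, led by Gata3 (9.30 ± 0.375 TPM), Gata2 (8.95 ± 2.57) and Lmx1b, and they summed to 28.7 and 24.4 TPM. Tph2, the serotonin synthesis gene of neurons and the first of that list, had 9 counts in each library (0.170 and 0.160 TPM; named, like Pkd2l1 next, after its values were seen). Genes of the neurons that contact the cerebrospinal fluid, 4 of 6 past 1 TPM in each library, included Pkd2l1 at 1.48 and 1.39 TPM. Gata3, Gata2 and Sox14 (6.15 ± 0.417 TPM) were the highest of that list.

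Slc18a2 and Maoa are known from blood and vessel cells as well. Platelet, megakaryocyte and mast cell genes, 6 of 8 past 1 TPM in each library, summed to 93.3 and 103 TPM, led by Pf4 (46.1 ± 4.24 TPM), Kit (26.1 ± 1.36) and Gp1bb (9.70 ± 0.403). Their median log2 ratio was 0.02. Of the mast cell protease genes, named after their values were seen, Mcpt4 had 0 counts in both and Cpa3 had 13 and 14. Endothelial and pericyte genes summed to 121 and 127 TPM, with all 6 past 1 TPM, led by Cldn5, Kdr and Pecam1, and a median ratio of 0.06. The part of these cells in the levels of Slc18a2 and Maoa was not tested.

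Hand2 was read beside heart and limb genes. Heart genes, 5 of 10 past 1 TPM in each library, summed to 40.3 and 26.2 TPM in replicates 1 and 2. Their median log2 ratio was -0.60, and 4 of 8 compared genes were past 1.5-fold and lower in replicate 2. Of these 4, Myh7 had 758 and 360 counts, and the other 3 had mean counts under 100, where 31.1% of all genes were past it. Myl7 (0.07) and Gata6 (0.34, named after its values were seen) were not lower. The highest were Tnnt2 (12.9 ± 3.28 TPM), Myh7 (7.16 ± 2.35) and Myl7 (4.16 ± 0.233). Gata4, which had 13 counts in replicate 1, had 0 in replicate 2 (named after its values were seen). The heart factor genes Nkx2-5 (5 and 1 counts) and Tbx5 (6 and 0) had too few counts to be compared. They too were named after their values were seen. Limb and lateral mesoderm genes summed to 31.9 and 31.5 TPM. Of its 5 compared genes, that list had 2 past 1.5-fold and lower. Both had mean counts under 100, where 31.1% of all genes were past it. The highest were Prrx1 (16.8 ± 0.707 TPM), Osr1 (9.48 ± 2.22) and Foxf1 (3.81 ± 0.679). The 3 liver genes compared, Afp, Apoa1 and Alb, were also lower in replicate 2, at a median of -0.84 on the log2 scale. Apoa1 and Alb had mean counts under 100, and the other liver genes listed had too few counts to be compared. Most of the difference in the heart sum came from Tnnt2 (15.2 and 10.5 TPM), Myl2 (4.68 and 0.63, named after its values were seen) and Myh7 (8.82 and 5.49). The summed levels of the heart and liver lists were lower in replicate 2, like the count of Hand2, and that of the limb list was about the same. The part of these cells in the Hand2 difference was not tested.

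**Figure D5:**
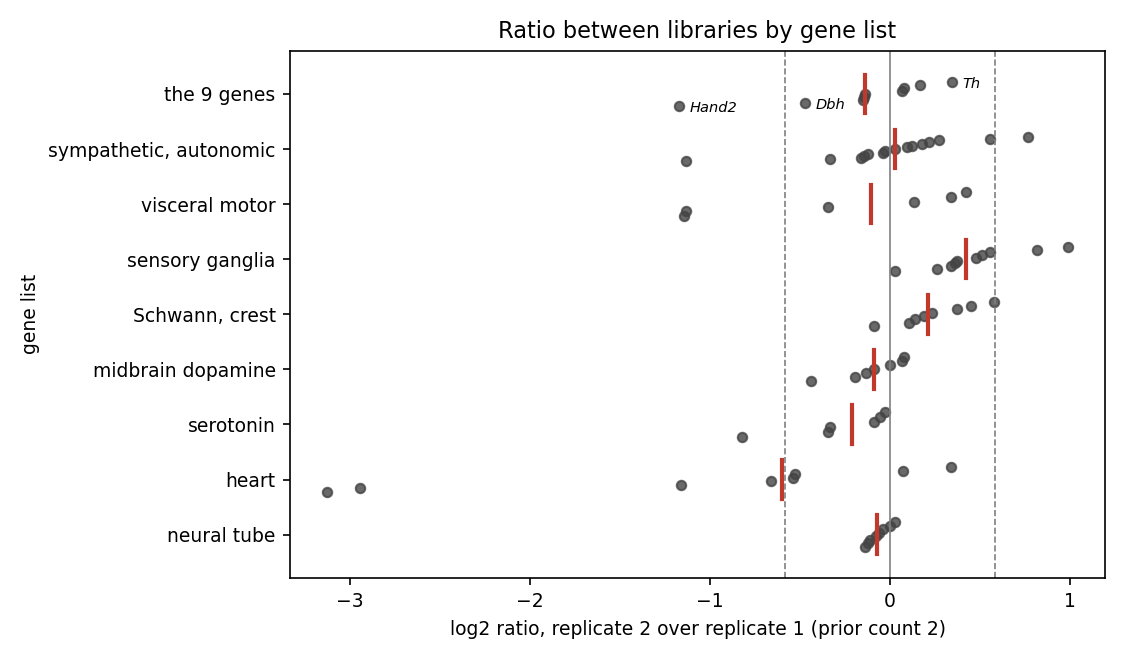
Log2 ratio of replicate 2 over replicate 1 (prior count 2) for the genes compared in each list (points) and the list's median (red bar), with dashed lines at 1.5-fold. The median is 0.42 for sensory ganglion genes, -0.60 for heart genes and -0.14 for the 9 genes, in which Th lies to the right and Dbh and Hand2 to the left.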

How the data were processed

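Polyadenylated RNA of mouse neural tube was measured in 2 libraries of 1 group, 1 pool of embryos each. Reads were aligned on mm10 and quantified with GENCODE M21 (used here) and M4, per the notes deposited with each library. The software behind these steps was not given in the sources used here. The authors deposited estimated counts per gene and transcript, per the file headers, in which a read that fits several transcripts is divided between them. They also deposited TPM, which sums over the table with its spike-ins, the percent of each gene's TPM taken by each transcript, and posterior SDs. Promoter windows came from RefSeq (GRCm38.p6), without the last 20 of their 50 bases after the start.

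For ratios between libraries, the estimated counts were rounded and 20125 genes passed a minimum of 10 in 1 library or the other. TMM scaling came from edgeR 4.0.16 in R 4.3.3, with DESeq2 1.42.0 size factors as an alternative. Intervals are Clopper-Pearson at 95%. No p-value was computed, since 1 group of 2 pools allows no comparison of conditions. PCR copies count as separate reads, so intervals and limits cover counting error only. For 1 kb of sequence, 1 count equals 0.0477 TPM in replicate 1 against 0.0462 TPM in replicate 2. The libraries differed by more than sampling noise (chi-square 6.997 per degree of freedom) and were kept as 2 replicates. Ratios and intervals were tested on simulated data drawn with counting error only. That check therefore does not cover the other variation between the pools. Other software was Python 3.11.15 with scipy 1.17.1, pandas 2.3.3, numpy 2.4.6, and matplotlib 3.10.9 for plots.

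The 9 genes, the 18 other lists and the alternatives were chosen with earlier results of these data known. Genes named are the 9, other pathway genes at or above 1 TPM in each library, the 3 highest of a cell type list and its first gene if under 0.1 TPM throughout, genes in the ratios and genes that overlap one of the 9. Others are said to be named after their values were seen. Some genes under the rule are not reported here.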

Additional observations from a re-analysis of the deposited data

How the results depend on the processing

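Over 36 results, 157 alternative values were computed. With 2 libraries, leaving out 1 cannot move a mean by more than their SD, so those values say nothing of stability. At 2 TPM instead of 1 TPM, 4 of the 9 genes passed instead of 7, and with a fold threshold of 0.32 on the log2 scale 3 were past it (Th, Dbh and Hand2) instead of 1. The shares over all genes at these alternative thresholds are not given, so these counts have no background beside them. Hand2 was past 1.5-fold under every scaling, prior count, filter and annotation release tried. These alternatives reuse the same few reads, so they cannot show that the difference is more than counting error. The counting interval of Hand2 held 0 (-3.31 to 0.11). Of 54 alternative ratios of the 9 genes between libraries, 1 changed sign: Ddc was at 0.07 with TPM and a pseudocount of 0.1. Leaving out 1 library turned 1 ratio within a library that was close to 0. Hand2 over Hand1 ran from -0.68 without replicate 1 to 0.75 without replicate 2. With counts per annotated exon length the log2 ratio of Th over Ddc was 3.55 instead of 2.36, that of Ddc over Slc18a2 -2.26 instead of -1.11 and that of Gch1 over Th -4.21 instead of -3.44. No paired analysis was possible because the series has 1 group. TPM rescaled over nuclear genes alone raised the mean of Maoa from 11.1 to 12.3 TPM and that of Slc18a2 from 8.14 to 8.97 TPM. Depth limits Dbh and Hand2 most.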

Other observations

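Some other monoamine genes with few counts, chosen after their values were seen, differed between the pools in both directions. Tph1, a tryptophan hydroxylase gene, had 21 counts in the pool of 120 embryos against 54 in that of 88, with a log2 ratio of 1.20 (0.52 to 2.08). Pnmt, which turns noradrenaline into adrenaline, had 20 and 9 counts (-1.08, -2.56 to -0.04), and the serotonin transporter gene Slc6a4 had 38 and 22 (-0.82, -1.71 to -0.08). Hand2os1 had a log2 ratio of -1.89 (-3.46 to -0.99), and Tbx20, a factor of visceral motor neurons and heart, had 46 and 21 counts (-1.14, -2.04 to -0.45). These intervals cover counting error only, and the differences have no replicate check. All of these genes had mean counts under 100, where 31.1% of all genes were past 1.5-fold. Other monoamine genes with few counts were within it, among them Slc18a1 (-0.33), Slc22a3 (0.24) and Drd4 (0.06), also named after their values were seen.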
